A study of Mus musculus with 6 samples.

Results

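The integrated stress response and the unfolded protein response were followed through 32 genes in tumour-exposed mouse macrophages with and without E-FABP, the lipid carrier of epidermal type that Fabp5 encodes. The genes were listed by name, with earlier results of these data known. They comprise 3 stress sensors, 5 transcription factors and 8 targets of the factor ATF4. The others are 12 chaperones and folding factors of the endoplasmic reticulum (ER) and 4 factors of ER-associated degradation. All 32 had a probe set of their own, among 18193 genes with one. Where a gene had several probe sets, its brightest one, by mean over all 6 arrays, was taken for the gene.

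The knockout group was 3 cultures from E-FABP knockout mice, and the wild-type group was 3 cultures from wild-type mice, all given as C57BL/6, naive and 6 to 8 weeks old. Which part of Fabp5 the knockout lacks, and whether each culture had its own donor animal, is not stated in the labels, so p-values measure the spread between these samples. Marrow cells of both genotypes were grown for 7 days with the growth factor GM-CSF at 20 ng/ml and then kept for 18 h with E0771, breast cancer cells of the mouse, which sat in an insert without touching them. All 6 arrays therefore carry the tumour exposure, and the comparison asks how the stress genes of exposed macrophages differ when E-FABP is missing.

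In the integrated stress response, kinases that sense amino acid lack, viral RNA, haem lack or misfolded ER protein phosphorylate the initiation factor eIF2, which slows translation as a whole but favours that of ATF4. ATF4 then induces genes for amino acid supply, and, when stress lasts, the factor CHOP. In the unfolded protein response, the ER sensors PERK, IRE1 and ATF6 respond to misfolded protein. PERK feeds into ATF4, while IRE1, through splicing of Xbp1 RNA, and ATF6 induce chaperones and the degradation machinery. Cells that secrete or present much protein, dendritic cells and macrophages among them, rely on these branches.

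Values are log2 intensities, on which a difference of 1 is a doubling, and differences are knockout minus wild type. Fabp5 itself lay at 8.27 in knockout and 14.44 in wild type (a difference of -6.17, SE 0.08, n = 3 each). The macrophage genes Lyz2 (14.85 in knockout and 14.84 in wild type), Csf1r (13.87 and 13.89) and Cd68 (13.18 and 13.28) were bright in both genotypes. Over all genes, 4.90% passed a limma adjusted p of 0.05 in either direction, 519 of them higher and 373 lower in knockout. Median intensities of the arrays lay between 5.60 and 5.64, and no batch is named in the labels. Precision is limited by having 3 arrays of each genotype.

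Of the 32 stress genes, 1 fell in the knockout cultures, 0 rose and 31 did not pass the threshold. The one that fell was Ppp1r15a, by 0.33 on the log2 scale. Expressed as a share, 3.13% of the members were called, against 4.90% of all genes (2.05% called lower and 2.85% higher). By unadjusted limma p under 0.05, 5 members differed downward and 3 upward, which is 25.0% of the list against 23.4% of all genes. At a limma adjusted p under 0.1, 4 were lower and 2 higher, or 18.8% against 10.7% of all genes. The values of the genotypes did not overlap for 14 members, 9 lower and 5 higher, or 43.8% against 31.9% of all genes (11.2% lower and 20.7% higher). Other settings called more or fewer members, along with more or fewer genes in all. With trend and robust eBayes 7 members were called (9.27% of all genes), with above-median probe sets 6 (13.5%), with averaged probe sets 5 (6.83%), with array weights 3 (5.45%) and with median centring 2 (5.63%). With each array left out, 0 members were called by limma, the smallest adjusted p being 0.0646 for Herpud1, while the calls over all genes came to 0.0934%, 0.984% and 4.23% when knockout replicates 1, 2 and 3 were the ones omitted, and to 0.973%, 0.264% and 2.80% for the wild-type replicates in the same order. The differences ran from -0.33 for Ppp1r15a to 0.43 for Herpud1, with a median of -0.07 beside 0.01 over all genes. The 95% intervals of all 32 differences lay between -0.51 and 0.65, so for each of them a change beyond 0.65 in either direction lay outside its interval.

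**Figure D1:**
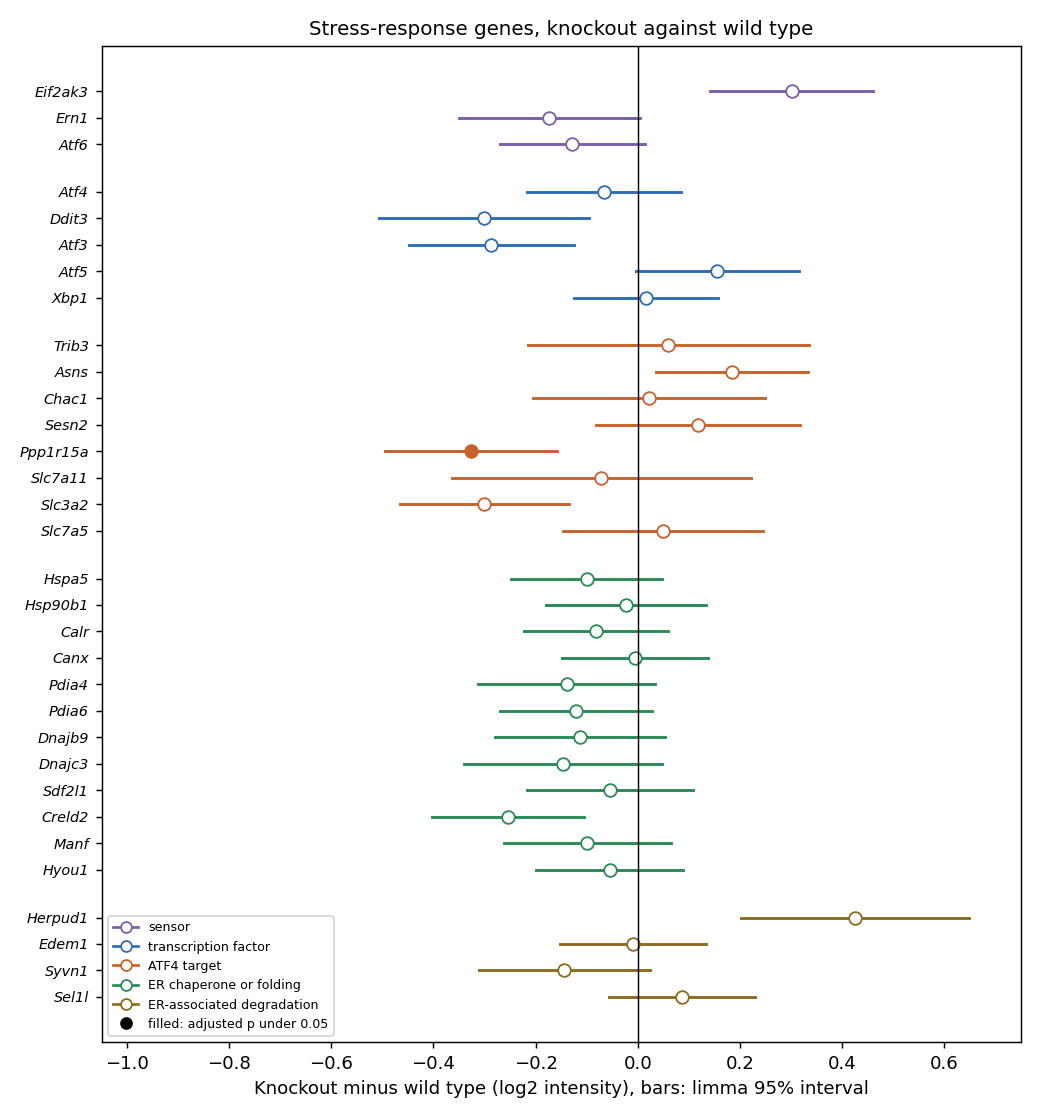
Knockout minus wild type for each of the 32 genes (log2 intensity, horizontal axis), grouped by role, with limma's 95% interval as a bar. The filled point is Ppp1r15a (-0.33), the one gene with an adjusted p under 0.05, and Herpud1 (0.43) and Eif2ak3 (0.30) lie farthest to the right.

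Among the sensors, Eif2ak3, the gene of the ER kinase PERK, had the higher mean in knockout. It read 8.42, 8.34 and 8.43 on knockout replicates 1, 2 and 3, and 8.13, 8.00 and 8.15 on the wild-type replicates. All 3 knockout values were above the 3 wild-type values. The difference was 0.30 (SE 0.07, limma adjusted p = 0.0517), and its dimmer probe sets lay at 0.21 both. Their mean levels, 4.64 and 3.95, were under the median of all values (5.63), so they add little. Ern1, which codes for IRE1, lay at 9.43 ± 0.13 (mean ± SD, n = 3) in knockout and 9.60 ± 0.03 in wild type, a difference of -0.17 (SE 0.08, limma adjusted p = 0.259). Atf6, the sensor that is cut in the Golgi to release a transcription factor, lay at 8.41 ± 0.05 against 8.54 ± 0.01 (n = 3 each). Its difference was -0.13 (SE 0.06, limma adjusted p = 0.300), but its other probe sets gave 0.23 and -0.03, so its direction depends on the probe set. The replicates of both genotypes were also separate for Ern1 and Atf6.

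Atf4 itself hardly differed in RNA level. It read 11.45, 11.51 and 11.52 on the knockout replicates and 11.52, 11.53 and 11.63 on the wild-type replicates, and the ranges overlapped. The difference was -0.07, with a 95% interval from -0.22 to 0.08 (limma adjusted p = 0.641). ATF4 is controlled mainly at the level of translation, which an RNA array does not measure. Ddit3, the gene of CHOP, read 9.81, 10.12 and 10.05 in knockout against 10.24, 10.37 and 10.27 in wild type. Its knockout values were all below the wild-type values, with knockout replicate 1 the lowest of the 6. The difference of -0.30 (SE 0.09) did not pass (limma adjusted p = 0.103), and its dimmer probe set lay at -0.22.

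Atf3, an immediate stress factor also induced by inflammatory signals, lay at 11.87 ± 0.07 in knockout and 12.16 ± 0.07 in wild type (n = 3 each), with no overlap. Its difference of -0.29 (SE 0.07) gave a limma adjusted p of 0.0612. Atf5, a relative of ATF4 that responds to mitochondrial stress, had the opposite sign, at 0.16 (SE 0.07, limma adjusted p = 0.259). Xbp1 read 12.57, 12.61 and 12.60 in knockout and 12.57, 12.54 and 12.62 in wild type, with overlap. The interval of its difference, 0.02, ran from -0.13 to 0.16, and its 3 other probe sets lay between 0.03 and 0.08. Which of these probe sets read the spliced or the unspliced Xbp1 RNA was not tested.

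**Figure D2:**
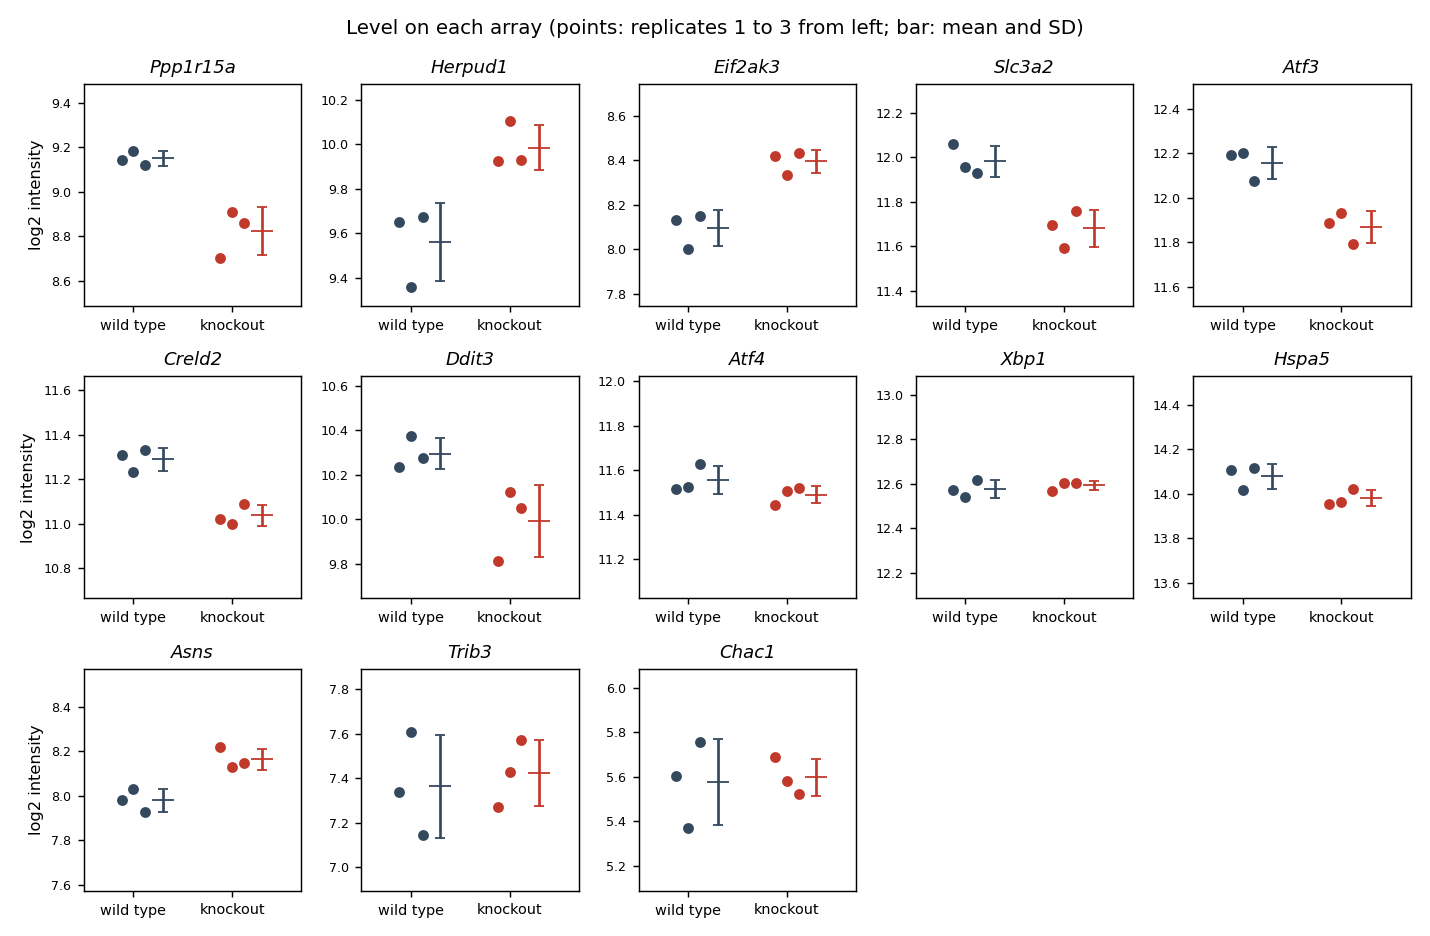
Level of 13 members on each array (log2 intensity, vertical axis, each panel spanning 1 unit), with the mean and SD (n = 3) beside the points. Ppp1r15a, Slc3a2, Atf3, Creld2 and Ddit3 sit lower on the 3 knockout arrays, Herpud1, Eif2ak3 and Asns sit higher, and Atf4, Xbp1, Hspa5, Trib3 and Chac1 overlap.

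The ATF4 targets went in both directions, 5 with a higher and 3 with a lower mean in knockout. The split was 4 and 4 after quantile normalization, and 3 and 5 without wild-type replicate 2. Their promoters were searched for the core of the element that ATF4 binds with C/EBP proteins, TGATGNAA, on both strands, in windows from 250 bases before to 50 after the start (RefSeq, GRCm38.p6). Of the 32 members, 28 had such a window. The core was in 4 of 7 ATF4 targets with one, in Atf3 and in Herpud1, against 3.97% of all 32851 windows. It was in 0 of 10 ER chaperones. The matches are shown because, of these groups, the element was found in ATF4 targets and not in chaperones, with the core in capitals, 5′ to 3′ along the gene.
Asns: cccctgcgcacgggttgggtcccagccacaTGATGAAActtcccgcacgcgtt
Chac1: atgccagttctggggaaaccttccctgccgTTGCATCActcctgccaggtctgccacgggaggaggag
Slc7a11: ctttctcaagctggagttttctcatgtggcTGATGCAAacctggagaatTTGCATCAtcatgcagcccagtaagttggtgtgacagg
Atf3: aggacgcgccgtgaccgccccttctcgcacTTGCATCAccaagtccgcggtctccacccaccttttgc
These lie at chr6:7693210-7693262 (minus strand), chr2:119351019-119351086 (plus), chr3:50443623-50443709 (minus) and chr1:191183406-191183473 (minus). Slc7a11 carries the core in each orientation, starting 66 and 47 bases before its start. The match of Trib3 begins at base 15 after its start. A match is a description of these letters and does not show binding in these cells. Gene list and motif both come from prior knowledge of the pathway. The share of ATF4 targets with the core is therefore not a result of these arrays.

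Ppp1r15a codes for GADD34, the stress-induced subunit that directs a phosphatase to eIF2 and so ends the response. It read 8.70, 8.91 and 8.86 on knockout replicates 1, 2 and 3, against 9.14, 9.19 and 9.12 in wild type. Knockout replicate 1 was the lowest, and the genotypes did not overlap. The difference was -0.33 (SE 0.07), or 1.25-fold, with a limma adjusted p of 0.0481. This call rested on all 6 arrays: with each array left out in turn the adjusted p lay between 0.0814 and 0.139 and the difference between -0.37 and -0.27. It was also lost with the arrays centred on their medians (limma adjusted p = 0.0554), with values floored at the 20th percentile (0.113) and with a term for the replicate number (0.0900). Of all 892 called genes, 204 lost the call in each of the 6 leave-one-out fits and 12 kept it in each. Its promoter held none of the motifs searched, and no other kinds of site were searched for. The 100 bases before its start (chr7:45526269-45526368, minus strand) are given for comparison with those above.
Ppp1r15a: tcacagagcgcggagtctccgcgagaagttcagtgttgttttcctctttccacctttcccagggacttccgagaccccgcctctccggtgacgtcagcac

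Slc3a2, the heavy chain shared by amino acid transporters, lay at 11.68 ± 0.08 in knockout and 11.98 ± 0.07 in wild type (n = 3 each). Its difference of -0.30 (SE 0.07) had a limma adjusted p of 0.0574, with all knockout values below those of wild type. Its partner chains overlapped between the genotypes. Slc7a11, the cystine importer, differed by -0.07 (95% interval -0.36 to 0.22), and Slc7a5, the large neutral amino acid transporter, by 0.05 (-0.15 to 0.25). Whether either differed from Slc3a2 was not tested, and the interval of Slc7a11 holds the value of Slc3a2. Asns, asparagine synthetase and a classical ATF4 target, read 8.22, 8.13 and 8.15 in knockout against 7.98, 8.03 and 7.93 in wild type. All knockout values were higher. The difference of 0.19 (SE 0.07) had a limma adjusted p of 0.155, and the other probe set lay at 0.29.

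Trib3, a pseudokinase induced by ATF4 and CHOP, read 7.27, 7.43 and 7.57 in knockout and 7.34, 7.61 and 7.15 in wild type. Chac1, which degrades glutathione, read 5.69, 5.58 and 5.52 against 5.60, 5.37 and 5.75. For both genes the wild-type range enclosed the knockout range. Their differences were 0.06 for Trib3 (95% interval -0.21 to 0.34) and 0.02 for Chac1 (-0.21 to 0.25), and the signs of both turned when single arrays were left out. Chac1 lay near 5.63, the median of all values, so a change there may be understated. Sesn2, a leucine sensor that restrains mTORC1, differed by 0.12 (SE 0.09, limma adjusted p = 0.503). The SEs of the 8 ATF4 targets ran from 0.07 to 0.13, with a median of 0.09, against 0.07 for the chaperones.

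All 12 ER chaperones and folding factors had a lower mean in knockout, but 0 passed the threshold with limma, and 1 had an unadjusted p under 0.05. Over all genes, 46.9% had a lower mean and 23.4% an unadjusted limma p under 0.05. After quantile normalization or median centring 11 of the 12 were lower, Canx having turned to 0.0027 and 0.0065. With averaged probe sets 10 were lower (Canx and Dnajc3 turned), and without wild-type replicate 1 also 10 (Canx and Hsp90b1 turned). Without knockout replicate 1 or wild-type replicate 3, 11 were lower. Their median difference was -0.10, and their 95% intervals lay between -0.40 and 0.14. The promoters of this group were searched for the ER stress element ERSE (CCAAT, then 9 bases of any kind, then CCACG, on both strands), which ATF6 and XBP1 recognise with NF-Y. It stood in 7 of 10 chaperones with a window and in Syvn1, against 0.119% of all windows, and in 0 of 7 ATF4 targets. Gene groups and motifs both come from prior knowledge of these pathways. These shares are therefore a description of the promoters and not a result of these arrays. The ERSE is printed in capitals for 4 of the 7 chaperones that hold it, 5′ to 3′ along the gene.
Hspa5: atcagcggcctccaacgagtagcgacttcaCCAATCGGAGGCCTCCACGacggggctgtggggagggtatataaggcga
Creld2: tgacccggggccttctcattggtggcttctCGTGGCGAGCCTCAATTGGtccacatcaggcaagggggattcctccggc
Pdia6: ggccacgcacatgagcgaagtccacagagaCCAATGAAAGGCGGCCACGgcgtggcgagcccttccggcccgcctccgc
Canx: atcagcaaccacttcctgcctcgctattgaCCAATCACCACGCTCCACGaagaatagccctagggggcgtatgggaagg
They lie at chr2:34771995-34772073 (plus strand), chr15:88819490-88819568 (plus), chr12:17266461-17266539 (plus) and chr11:50325770-50325848 (minus), and that of Creld2 runs on the opposite strand. The other matches were in Hsp90b1, which has 2, Calr and Dnajc3.

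**Figure D3:**
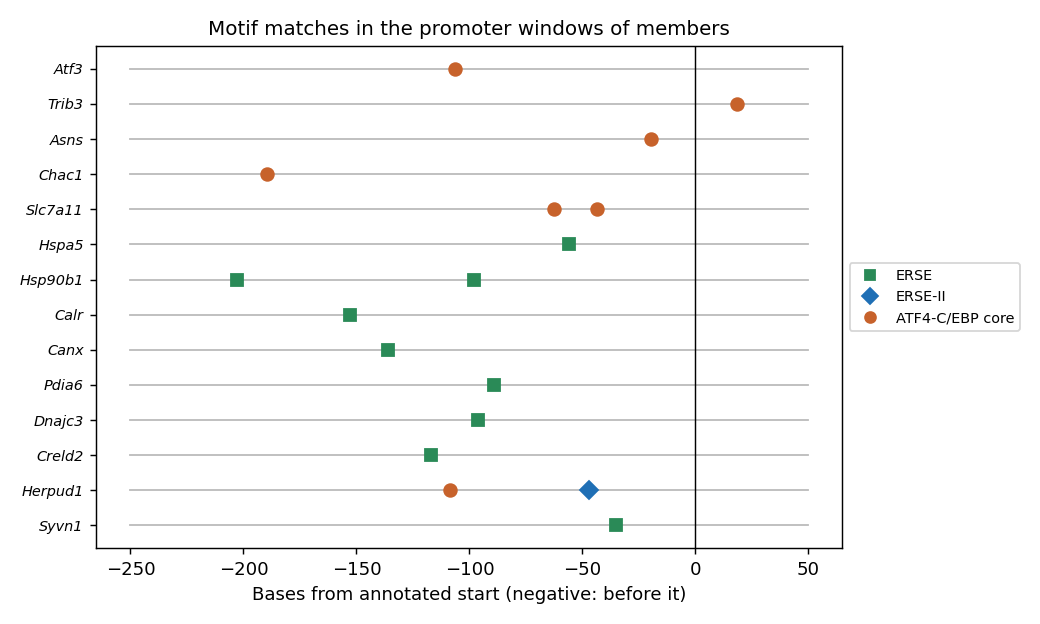
Motif matches in the promoter windows of the 14 members with one, by distance from the annotated start (bases, horizontal axis; grey lines, the searched window). ERSE squares stand in chaperones and Syvn1, circles of the ATF4-C/EBP core in Atf3, ATF4 targets and Herpud1, and the ERSE-II diamond in Herpud1.

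Hspa5, the gene of the main ER chaperone BiP and the usual readout of ER stress, read 13.95, 13.96 and 14.02 in knockout against 14.11, 14.01 and 14.12 in wild type. Knockout replicate 3 lay above wild-type replicate 2, so the ranges overlapped. The difference was -0.10, with an interval from -0.25 to 0.05 (limma adjusted p = 0.445). Creld2, a secreted folding factor, differed most in this group, at 11.04 ± 0.05 against 11.29 ± 0.05 (n = 3 each) with no overlap. Its difference was -0.25 (SE 0.07, limma adjusted p = 0.0688). Calr, the lectin chaperone calreticulin, differed by -0.08 and Pdia6, a disulfide isomerase, by -0.12, and in both the genotypes were separate. Canx, the membrane-bound partner of calreticulin, lay at -0.0048, with an interval from -0.15 to 0.14.

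The other chaperones overlapped between genotypes. They were the disulfide isomerase Pdia4 (-0.14), the BiP co-chaperones Dnajb9 (-0.11), Dnajc3 (-0.15) and Sdf2l1 (-0.05), the ER form of HSP90, Hsp90b1 (-0.02), the nucleotide exchange factor Hyou1 (-0.06) and the secreted factor Manf (-0.10). Wild-type replicate 2 was the lowest wild-type array for 11 of the 12 chaperones, so their shared sign is not 12 separate observations. Without this array their median difference was -0.13, against -0.10 with it. The probe sets of Dnajc3, Pdia6, Canx and Hyou1 disagreed in sign.

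Herpud1 had the largest difference of the list, in the other direction from the chaperones. It codes for HERP, a membrane protein of the degradation complex that is strongly induced by ER stress. It read 9.92, 10.10 and 9.93 on knockout replicates 1, 2 and 3 and 9.65, 9.36 and 9.67 on the wild-type replicates. Each knockout value was above each wild-type value, with wild-type replicate 2 the lowest. The difference was 0.43 (SE 0.10), or 1.34-fold, and missed the threshold (limma adjusted p = 0.0506), and the other probe set lay at 0.35. Its adjusted p was under 0.05 in 5 of 9 other settings, and 0.0646 to 0.155 with each array left out in turn. Among the members it alone held both an ATF4 core and ERSE-II (ATTGG, any base, then CCACG, on both strands, in 0.0365% of all windows). Dnajb11, a further gene of the unfolded protein response, also holds ERSE-II, and it differed by -0.13. The stretch of Herpud1 lies at chr8:94386287-94386417 (plus strand), with the core first and ERSE-II second in capitals.
Herpud1: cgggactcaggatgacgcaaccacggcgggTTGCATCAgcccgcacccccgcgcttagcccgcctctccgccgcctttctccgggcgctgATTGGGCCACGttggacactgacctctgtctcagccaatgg

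The other degradation factors differed less. Syvn1, the ubiquitin ligase HRD1, lay at -0.14 (SE 0.07), its adaptor Sel1l at 0.09 (SE 0.06) and Edem1, which marks misfolded glycoproteins, at -0.0097 (SE 0.06), with limma adjusted p between 0.324 and 0.956. Sel1l was higher on all knockout arrays, but its 4 other probe sets lay between -0.11 and -0.0056. The sign of Edem1 turned after median centring (0.0015). Over the whole list, 15 of the 22 genes with several probe sets had the same sign in all of them, and 1 of the 72 probe sets was called.

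The contrast between the ATF4 targets and the ER chaperones was small. For each array, the mean deviation of the chaperones from their gene means was subtracted from that of the 8 ATF4 targets. This gave 0.03, 0.04 and 0.02 on the knockout replicates and -0.03, 0.0025 and -0.07 on the wild-type replicates, a difference of 0.07 on the log2 scale. The knockout arrays were higher without overlap. It is a description of a list chosen with results known and has no p. With Ddit3, Atf3 and Atf5 counted as ATF4 targets the difference was 0.04 and the genotypes overlapped, and after quantile normalization it was 0.03. The mean differences behind it were -0.03 for the ATF4 targets and -0.10 for the chaperones, so both groups had the lower mean in knockout. The medians of the 2 groups were 0.04 and -0.10, the former turning to -0.0019 after quantile normalization. Members with an ERSE (8 genes) had a median of -0.11 and a range from -0.25 to -0.0048, and those with the ATF4 core (6 genes) a median of 0.04 and a range from -0.29 to 0.43. Of the ERSE genes, 7 are chaperones already counted above, so this split largely repeats the split by role. Of the further genes with an ERSE, Ero1b lay at 0.05 and Derl3 at -0.24.

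**Figure D4:**
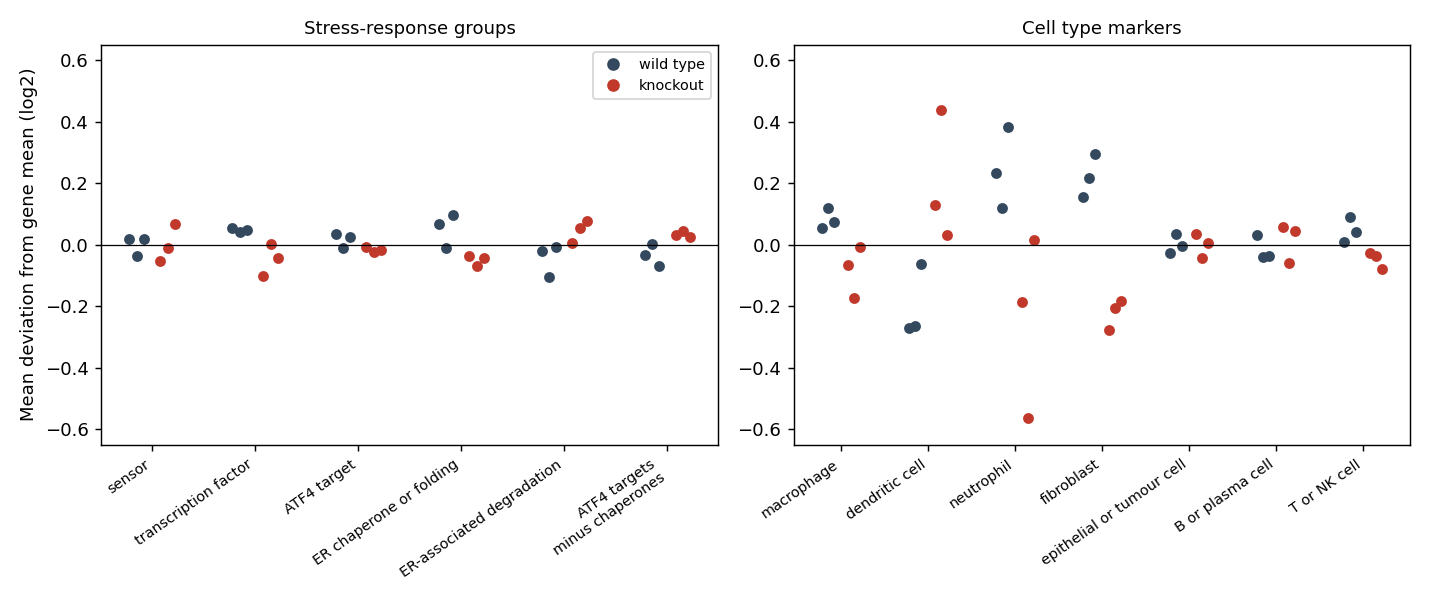
Mean deviation from the gene mean (log2, vertical axis) on each array for the groups of stress genes (left) and for marker lists of cell types (right), wild type in dark and knockout in red. The stress groups stay within -0.10 to 0.10, whereas dendritic cell, neutrophil and fibroblast markers spread from -0.56 to 0.44.

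Several marker lists of cell types also differed between the genotypes on these arrays. For comparison, 4.90% of all genes were called and 23.4% had an unadjusted limma p under 0.05. The mean log2 level of 9 dendritic cell markers was 7.60 to 8.00 in knockout and 7.29 to 7.50 in wild type, and 2 of the 9 rose, Batf3 (called in 1 of 6 leave-one-out fits) and H2-DMb2 (in 2 of 6). That of 11 neutrophil markers was 8.62 to 9.20 against 9.31 to 9.57, with 0 called by limma, and 9 at an unadjusted p under 0.05, 8 of which were lower. That of 10 fibroblast markers was 5.25 to 5.34 against 5.68 to 5.82, with 3 that fell, Col1a2, Col3a1 and Dcn. Of these, Col1a2 was called in 6 of 6 leave-one-out fits, Dcn in 4 and Col3a1 in 2, and the other probe set lay at -0.08 for Dcn and 0.02 for Col3a1. Of the 10 fibroblast markers, 5 lay under the median of all values in both genotypes, Col3a1 (3.79 in knockout and 4.27 in wild type) among them. Sparc differed by -0.0040 in its brightest probe set and by -0.84 and -0.67 in its others (smallest limma adjusted p = 0.0158). Of 10 macrophage markers, whose mean was 11.79 to 11.96 against 12.02 to 12.08, Fcgr1 and Mertk fell, called in 3 and 2 of the 6 leave-one-out fits. The epithelial or tumour cell, B or plasma cell, and T or NK cell lists differed by -0.0023, 0.03 and -0.09 in their means, with 0 called by limma and 1 gene at an unadjusted p under 0.05, which was lower. In these lists 4 of 6, 4 of 6 and 4 of 5 markers lay under the median of all values in both genotypes. Above it in both were Epcam (6.66 in knockout and 6.76 in wild type), Cdh1 (8.29 and 8.18), Mzb1 (6.54 and 6.56), Sdc1 (11.38 and 11.54) and Cd3e (5.86 and 6.02). RNA came from whole cultures, so fewer cells of a type and less RNA per cell cannot be told apart, and the part of these shifts in the differences of stress genes was not tested.

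Further genes of the integrated stress response showed more calls than the members. Of 30 listed, 27 were measured, 4 rose, 1 fell and 22 did not pass, which is 18.5% called against 4.90% of all genes, with a median difference of 0.03. This is a count over a list and not a test of it. The 4 that rose were among 18 ATF4-linked genes, whose median was 0.0022. Shmt2, the mitochondrial enzyme that passes a carbon unit from serine to folate, read 7.17, 7.36 and 7.22 in knockout and 6.48, 6.34 and 6.51 in wild type. Its difference was 0.81 (SE 0.08, limma adjusted p = 0.00705), and it was called with each array left out (0.00969 to 0.0369). With values floored at the 20th percentile the call was lost (limma adjusted p = 0.0645). Its 3 dimmer probe sets lay at 0.26 to 0.30, so the size depends on the probe set.

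Aldh18a1, the first enzyme of proline synthesis from glutamate, rose by 0.59 (SE 0.07, limma adjusted p = 0.0143), with 0.27 to 0.35 in its other probe sets. Leaving out knockout replicate 1 (0.0635) or wild-type replicate 2 (0.0520) ended its call, as did dropping probe sets of the _s_at and _x_at kind (0.0792) and the floor at the 20th percentile (0.0662). Slc38a2, a transporter of small neutral amino acids, read 10.58, 10.56 and 10.63 against 10.22, 10.10 and 10.22, a rise of 0.41 (SE 0.07, limma adjusted p = 0.0217). It lost the call without knockout replicates 1 or 2 or wild-type replicates 1 or 2 (up to 0.0822) and with the floor (0.0691), and its dimmer probe sets lay between -0.01 and 0.26. Pck2, mitochondrial phosphoenolpyruvate carboxykinase, rose by 0.33 (SE 0.07, limma adjusted p = 0.0441) and lost the call without each array in turn (0.0794 to 0.135), after quantile normalization (0.0595), with the floor (0.105) and with averaged probe sets (0.164). Its other probe set lay at 0.19. Of the 4, Pck2 holds the ATF4 core in its promoter window. The core was in 3 of the 16 further ATF4-linked genes with a window. Besides Pck2 these were Nupr1 (-0.32) and Slc1a4 (-0.05), both with the lower mean in knockout. Psat1 (0.26), Phgdh (-0.02) and Mthfd2 (-0.03), which supply or use serine, did not pass.

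The one that fell was Eif2ak2, the eIF2 kinase PKR, which binds double-stranded RNA and is itself induced by interferon. It read 9.62, 9.07 and 9.50 in knockout and 9.96, 10.58 and 10.29 in wild type, with no overlap. The fall of 0.88 (SE 0.17) had a limma adjusted p of 0.0310, which was 0.0395 without wild-type replicate 1 and 0.0510 to 0.107 without each other array, 0.0751 with trend and robust eBayes and 0.158 with the floor. Its other probe sets lay at -0.68 and -0.38, and neither passed (smallest limma adjusted p = 0.0634). Of the other eIF2 kinases, Eif2ak4, the amino acid sensor GCN2, lay at 0.20 (SE 0.07, limma adjusted p = 0.176) and Eif2ak1, the haem-regulated kinase, at 0.04 (SE 0.07). Ppp1r15b, the constitutive counterpart of Ppp1r15a, was chosen after its values were seen. It lay at 10.71, 10.62 and 10.81 in knockout against 11.01, 11.04 and 10.97 in wild type, a difference of -0.29 (SE 0.07, limma adjusted p = 0.0604).

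**Figure D5:**
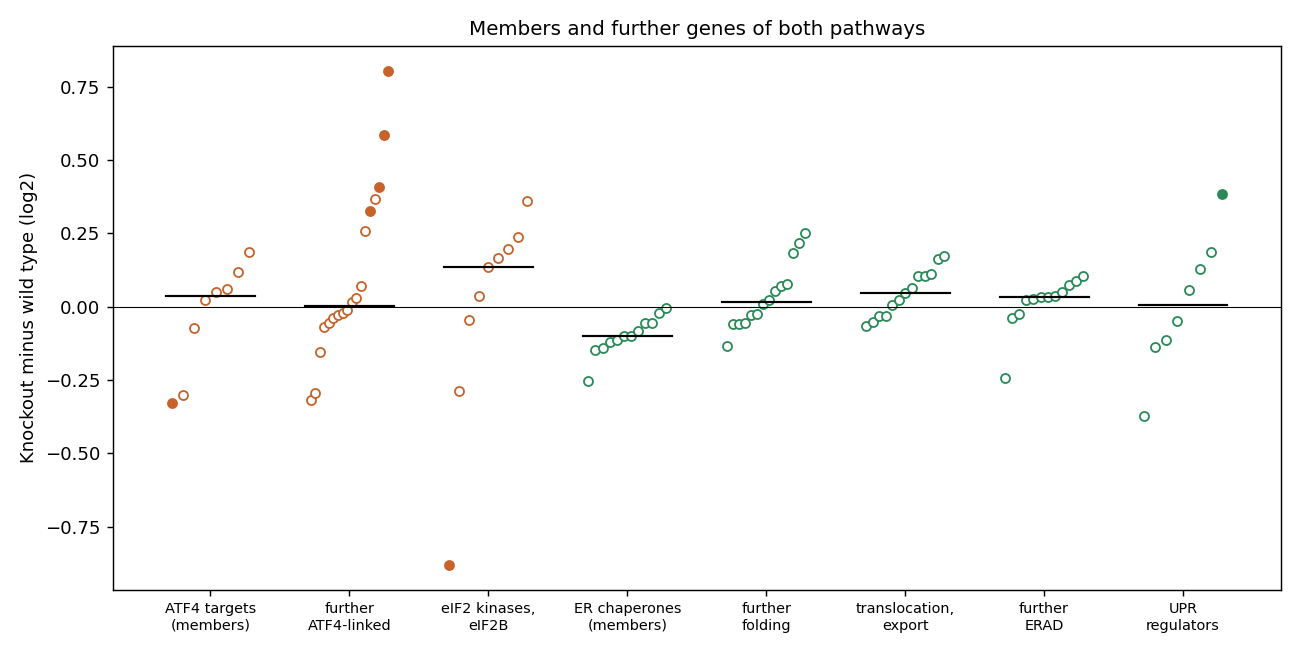
Knockout minus wild type (log2, vertical axis) for the ATF4 targets and ER chaperones among the members and for further genes of both pathways, 1 point per gene, filled where the adjusted p is under 0.05, with the group's median as a line. Shmt2 (0.81), Aldh18a1 (0.59) and Eif2ak2 (-0.88) had the largest differences of the genes shown.

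Further genes of the unfolded protein response stayed closer to 0. Of 48 listed, 47 were measured, 1 rose, 0 fell and 46 did not pass (2.13% called, against 4.90% of all genes). With limma's unadjusted p under 0.05 as the limit, 6 were higher and 2 lower. That is 17.0% of the list, against 23.4% of all genes (2769 higher and 1482 lower). The median was 0.03, and 30 of the 47 had the higher mean in knockout, so the lower means of the member chaperones were not seen over this wider list. The one that rose was Creb3l2, a membrane-bound transcription factor of secretory cells, by 0.38 (SE 0.09, limma adjusted p = 0.0456), a call lost without each array in turn (0.0553 to 0.124), after quantile normalization (0.0645), with the floor (0.136) and with averaged probe sets (0.0796), and its other probe set lay at 0.08. The 14 further folding factors had a median of 0.02, the 13 translocation and export genes one of 0.05 and the 12 degradation factors one of 0.03. Of the 14 further folding factors, 8 had the higher mean in knockout and 6 the lower. Among the 6, Pdia3 (-0.03), P4hb (-0.06) and Dnajb11 (-0.13), partners of the member chaperones in folding, did not pass. The search motif UPRE (TGACGTGG), bound by XBP1 and ATF6, was in 6 of 39 of these genes with a window and in 0 of 28 members, against 0.676% of all windows.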

How the data were processed

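The deposited table holds 1 log2 intensity per probe set and array, made by the authors from Affymetrix 3' arrays. RMA, GCRMA 2.30.0, limma 3.14.4 and affy 1.36.1 are listed in the submitters' processing notes, which do not say whether RMA or GCRMA made the values. Either one levels the arrays' distributions, so a shift shared by most genes would not show, and they treat dim probe sets differently.

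After 64 control probe sets were left out, 45037 were fitted with limma 3.58.1 in R 4.3.3 (a term for genotype and no other). P-values were adjusted over all of these probe sets by Benjamini-Hochberg. SEs and 95% intervals are limma's, moderated by eBayes. Permuting 6 arrays cannot give a two-sided p under 0.1. Symbols of the platform annotation were updated through RefSeq gene identifiers. On simulated arrays with 200 of 45037 probe sets changed, the fit recovered 52.2% of changes of 0.5 and 85.1% of changes of 1, with 8 false calls. Noise was drawn separately for each value, and the share changed was smaller than the 4.90% of genes called here. Changes under 0.5, the size of the members' differences, were not simulated, so these rates do not give the sensitivity for the members. The members and lists were chosen with earlier results of these data known. All 32 members could be named, and from each further list up to 6 called genes with the smallest p. Uncalled genes of the further lists, such as Psat1, Eif2ak4 and Pdia3, were named outside this rule.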

Additional observations from a re-analysis of the deposited data

How the results depend on the processing

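With 3 arrays per genotype the median SE of the members was 0.07, and changes near 0.3 sat at the threshold. Against 0 members called higher and 1 lower, the numbers were 2 and 0 with median centring, 2 and 4 with above-median probe sets only, 2 and 5 with trend and robust eBayes, 1 and 2 with array weights, 1 and 4 with averaged probe sets, 1 and 1 without probe sets ending in _s_at or _x_at, and 2 and 4 at an adjusted p under 0.1. All genes called were then 5.63%, 13.5%, 9.27%, 5.45% and 6.83% in the first 5 of these settings, and 10.7% at an adjusted p under 0.1. For the fit without _s_at and _x_at probe sets, and for the floor given next, the share over all genes was not counted. The number lower was 0 with a floor at the 20th percentile. With the replicate block it was 0 too, while calls over all genes went from 892 to 45. Under the block the limma adjusted p was 0.0900 for Ppp1r15a, 0.0534 for Aldh18a1, 0.0592 for Slc38a2, 0.0803 for Pck2, 0.0806 for Eif2ak2 and 0.0867 for Creb3l2, and Shmt2 kept its call (0.0472). The deviations of same-numbered arrays had r of -0.06, -0.04 and -0.13, and those of the other pairs lay between -0.05 and 0.11. With 3 arrays per genotype this cannot tell whether the numbers pair the samples. Leaving out each array gave 0 lower (range 0 to 0) and 0 higher. The difference between ATF4 targets and ER chaperones moved from 0.07 to 0.0273 with quantile normalization, 0.0955 without _s_at and _x_at probe sets and 0.0359 with Ddit3, Atf3 and Atf5 added. It was 0.05 to 0.08 with each array left out, and the members' median -0.09 to -0.05. The cause of these changes was not tested.

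Signs turned for uncalled genes near 0: with averaged probe sets for Atf6 (0.0245), Canx (0.0105), Dnajc3 (0.0059), Edem1 (0.0479) and Sel1l (-0.0438), with quantile normalization for Slc7a5 (-0.0041) and Canx (0.0027), with median centring for Canx (0.0065) and Edem1 (0.0015), and with array weights for Chac1 (-0.0107). With each array left out, differences ranged from -0.0024 to 0.0373 for Xbp1, -0.0483 to 0.18 for Trib3, -0.0806 to 0.11 for Chac1, -0.21 to 0.0291 for Slc7a11, -0.0031 to 0.13 for Slc7a5, -0.0722 to 0.0087 for Hsp90b1, -0.0248 to 0.0138 for Canx and -0.0368 to 0.0061 for Edem1. Over the 38 genes named from the members and called genes, 509 results under alternative settings kept direction and side of the threshold, 49 lost a call, 25 gained one and 24 turned sign. These counts include the main fit read at an adjusted p under 0.1, which is a looser threshold and not another fit.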
